A study of Mus musculus with 4 samples.

Results

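The 10 genes described here encode enzymes and carrier proteins that remove reactive oxygen: Sod1, Sod2, Cat, Gpx1, Gpx3, Gpx4, Prdx1, Prdx2, Txn1 and Txnrd1. They were taken by gene symbol, and all 10 were found among the 32285 genes of the expression matrices. Superoxide dismutases turn superoxide into hydrogen peroxide, which catalase, the glutathione peroxidases and the peroxiredoxins then break down. Peroxiredoxins are recharged by thioredoxin, and thioredoxin by thioredoxin reductase. Beta cells, which make insulin, are known for low catalase and low glutathione peroxidase activity compared with most tissues, and this is often named as a reason why they are sensitive to oxidants.

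The study asked how islets of mice that are homozygous for a knock-in allele of Pax4, a transcription factor of endocrine development, respond to a high-fat diet. Single-cell RNA was read from pancreatic islets of male mice in 4 libraries: wild type on a standard chow diet (WT SCD) and homozygous knock-in on the same chow (HH SCD), both at 12 weeks of age, and wild type (WT HFD) and homozygous knock-in (HH HFD) after 4 weeks of high-fat diet, both at 16 weeks. Each library held the pooled islets of a few animals, so there was 1 library per group. The knock-in allele is present in every cell of the animal rather than in beta cells alone, and age differed with the diet, so that the effects of age and diet cannot be told apart. Differences between libraries are therefore given as values with intervals that cover counting error only, and tests were made only between cell classes, for which the 4 libraries are the replicates.

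The matrices held 4665 to 7123 barcodes and 68011082 to 104810105 unique molecular identifiers (UMIs, 1 per captured transcript) per library. The filter on cell quality kept 38.3% of the barcodes in WT HFD and 61.6% to 67.8% in the other libraries. At most 11 barcodes were shared by any pair of libraries. After removal of predicted doublets 12404 cells remained. Clusters, made without the 10 genes and 42 other antioxidant genes, were named from marker genes. They gave 11268 endocrine-like cells, of which 7980 were beta-like (1136 to 2845 per library), 1592 alpha-like, 1137 delta-like and 559 PP-like, and 1136 non-endocrine-like cells, chiefly 554 endothelial-like, 215 stromal-like and 123 macrophage-like, beside a mixed cluster of 128 cells named B cell-like, which at a higher cluster resolution split into 72 unnamed cells led by Apol7c, Lsp1 and Ccr7 and 56 led by immunoglobulin genes. The beta cell list, from which those clusters were named, made up 58.3% to 60.9% of UMIs in beta-like cells. Levels are given as CPM, the UMIs of a gene per 1000000 UMIs of the class. Islet hormones took 58.2% to 61% of the UMIs of beta-like cells and 1.52% to 3.63% of those of endothelial-like cells, so that every other gene has a lower CPM in beta-like cells for the same share of the remaining transcripts. Comparisons between classes were therefore made with TMM scaling, which does not depend on a few abundant genes. By CPM, the 9 genes other than Cat were lower in beta-like than in alpha-like cells in 4 of 4 libraries, all 10 were lower than in delta-like cells and all but Gpx3 were lower than in endothelial-like cells, also where the TMM-scaled difference is above 0. The beta cell list also reached 2.87% of UMIs in endothelial-like, 18.5% in stromal-like and 42.1% in macrophage-like cells.

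**Figure D1:**
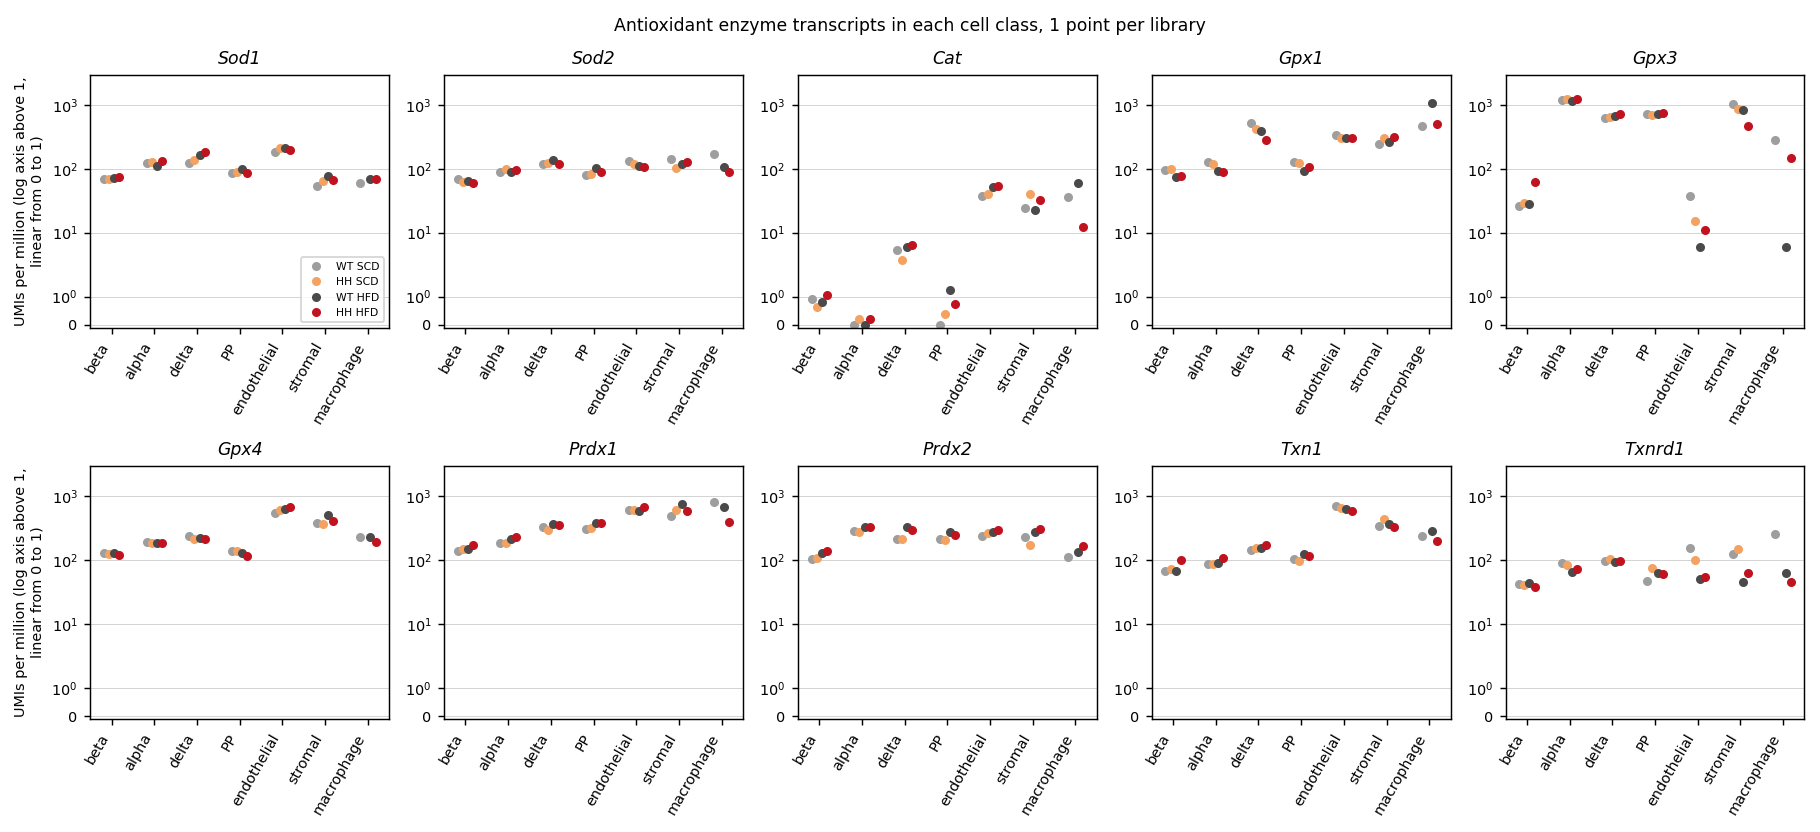
CPM for each of the 10 genes (y axis, logarithmic above 1 and linear from 0 to 1) in 7 cell classes (x axis), with 1 point per library coloured by group; macrophage-like cells of HH SCD, with 9 cells, are not drawn. Gpx3 lies at 26.1 to 61.8 in beta-like cells and at 1161 to 1234 in alpha-like cells, and Cat is near 0 in beta-like and alpha-like cells and at 36.9 to 54.3 in endothelial-like cells.

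Endocrine cells as a whole were set against non-endocrine cells within each library. Cat, Txn1, Gpx1, Gpx4 and Prdx1 were lower in the endocrine sum in 4 of 4 libraries, with median log2 differences of -5.36, -2.56, -1.97, -1.74 and -1.65 by CPM. The order stayed the same when hormone and mitochondrial genes were left out of the totals, with medians of -4.26 for Cat, -1.43 for Txn1, -0.92 for Gpx1, -0.66 for Gpx4 and -0.59 for Prdx1. Gpx3 was the exception among the peroxidases, higher in the endocrine sum in 3 of 4 libraries by CPM (median 0.39) and in 4 of 4 without hormones (median 1.44). Sod1, Sod2 and Prdx2 had no direction that held: they were lower in 4 of 4 libraries by CPM (medians -0.73, -0.77 and -0.84) and higher in 4 of 4 without hormones (medians 0.43, 0.28 and 0.25). Txnrd1 was lower in 4 of 4 libraries by CPM (median -0.72) and higher in 2 of 4 without hormones (median 0.33).

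Beta-like cells were then compared with each class by edgeR's quasi-likelihood test on summed UMIs, with the library as a block and Benjamini-Hochberg adjustment over 12942 genes. Against endothelial-like cells, the clearest non-endocrine class, 6 of 10 genes were lower in beta-like cells (Sod1, Cat, Gpx1, Gpx4, Prdx1, Txn1) and 2 were higher (Gpx3, Sod2), where 33.6% of all genes were lower and 39.7% were higher. The median log2 difference of the 10 genes was -0.55 against 0.16 over all genes. Against delta-like cells 3 of 10 were lower (Cat, Gpx1, Gpx3) and 0 higher, with 27.5% of all genes lower and 23.9% higher, and the medians were -0.21 and -0.03. Against alpha-like cells 3 of 10 were lower (Gpx3, Prdx2, Sod1) and 1 was higher (Cat), with 25.8% of all genes lower and 25.5% higher, and the medians were 0.02 and -0.00. Against alpha-like and delta-like cells the share of the 10 genes that was lower was near that of all genes. These counts moved with the method. More genes passed against alpha-like cells with only the 2 classes compared in the fit, and more against delta-like cells with DESeq2. Sod1 against alpha-like cells lost its call in 11 of 13 alternatives.

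**Figure D2:**
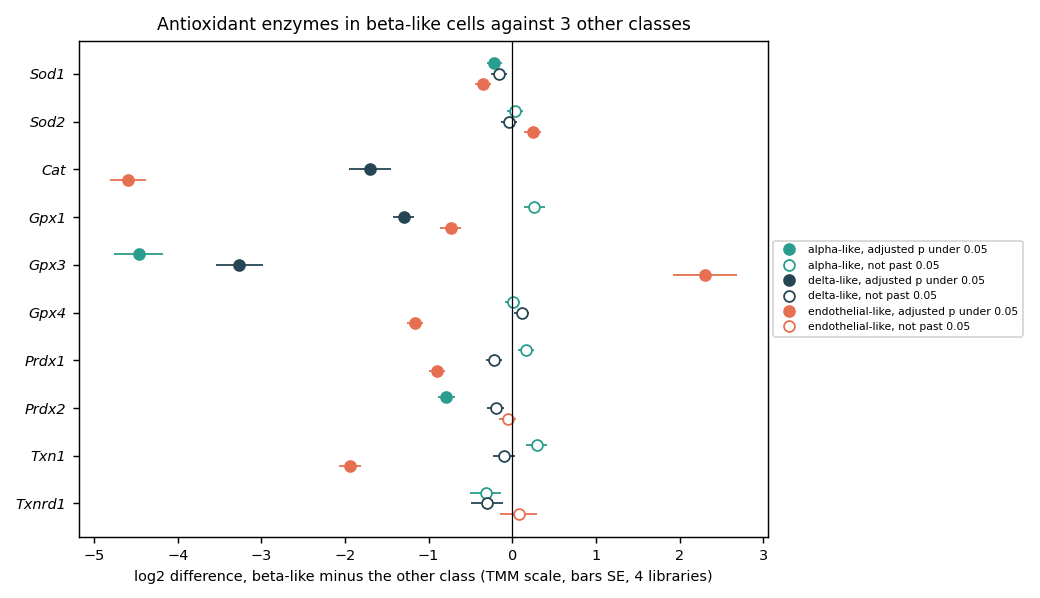
Log2 difference between beta-like cells and alpha-like, delta-like or endothelial-like cells (x axis, TMM scale) for each gene (y axis). Negative is lower in beta-like cells. Bars are 1 SE of the fit over all 24 sums, and filled points have an adjusted p under 0.05. Cat against alpha-like cells is not drawn, because each alpha-like library held 0 or 1 UMI; Gpx3 is at -4.47 against alpha-like and at 2.30 against endothelial-like cells.

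The superoxide dismutases differed by at most 0.35 on the log2 scale from the 3 classes. Sod1, the copper-zinc enzyme of the cytosol, lies on chromosome 16 from 90220754 to 90226329 on the plus strand (GRCm38, GENCODE annotation) and overlaps Scaf4 on the other strand. Sod1 was at 68.5, 68.4, 72.9 and 75.3 CPM in beta-like cells of WT SCD, HH SCD, WT HFD and HH HFD, so that the 4 libraries lay close together. It was at 183 to 211 CPM in endothelial-like cells, a log2 difference of -0.35 for beta-like cells (SE 0.09, edgeR adjusted p = 0.00174). The difference of Sod1 from alpha-like cells was -0.21 (SE 0.09, edgeR adjusted p = 0.0472), and the call was lost in all 4 fits that left out 1 library. Sod2, the manganese enzyme of mitochondria (chromosome 17, 13006846 to 13040063, plus strand), was at 68.1, 63.1, 64.0 and 60.8 CPM in beta-like cells and at 108 to 134 CPM in endothelial-like cells. Its TMM-scaled difference from endothelial-like cells was 0.25 (SE 0.10, edgeR adjusted p = 0.0352), while by CPM it was lower in beta-like cells in 4 of 4 libraries, and the call was lost without HH SCD, WT HFD or HH HFD. Neither dismutase passed the test against delta-like cells.

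Catalase transcripts were almost absent from beta-like and alpha-like cells. Cat, on chromosome 2 from 103453849 to 103485160 (minus strand), encodes the peroxisomal enzyme that splits hydrogen peroxide. It had 49, 33, 27 and 76 UMIs in all beta-like cells of WT SCD, HH SCD, WT HFD and HH HFD, or 0.900, 0.626, 0.795 and 1.07 CPM. Alpha-like cells held 0, 1, 0 and 1 UMI of Cat, and the direction of the call against them (edgeR adjusted p = 1.51e-05) rests on levels below 10 CPM on both sides. Delta-like cells held more, 3.67 to 6.41 CPM, with beta-like cells lower by a log2 difference of -1.70 (SE 0.25, edgeR adjusted p = 3.26e-06). Endothelial-like cells held 36.9, 40.9, 51.5 and 54.3 CPM of Cat, a log2 difference of -4.59 for beta-like cells (SE 0.21, edgeR adjusted p = 2.64e-16) with no overlap between the classes. With every cell thinned to 3000 UMIs, 0.152% to 0.352% of beta-like cells held a Cat UMI (2.33%, 1.62%, 2.38% and 2.67% unthinned, in the order of the libraries above), against 9.45% to 13% of endothelial-like cells (23.6% to 34.3% unthinned). The median depth was 24201 to 29781 UMIs per beta-like cell and 5812 to 7127 per endothelial-like cell, so the class with less Cat was the more deeply read.

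Among the glutathione peroxidases, Gpx3 carried the largest contrasts within the islet. Gpx3 encodes the secreted, selenium-containing glutathione peroxidase of plasma, and its gene lies on chromosome 11 from 54902453 to 54910377 (plus strand). Alpha-like cells held 1185, 1226, 1161 and 1234 CPM in WT SCD, HH SCD, WT HFD and HH HFD, a narrow range. PP-like cells held 700.1 to 747.9, delta-like cells 617 to 728 and stromal-like cells 475 to 1035 CPM. Beta-like cells held 26.1, 29.6, 28.3 and 61.8 CPM, and endothelial-like cells 36.9, 15.3, 5.90 and 11.0 CPM. PP-like and delta-like cells overlapped, as did beta-like and endothelial-like cells by CPM, while alpha-like cells lay above the 5 other classes of the test. Beta-like cells were lower than alpha-like cells by a log2 difference of -4.47 (SE 0.29, edgeR adjusted p = 1.47e-12) and lower than delta-like cells by -3.26 (SE 0.28, edgeR adjusted p = 2.24e-10). They were higher than endothelial-like cells by 2.30 (SE 0.38, edgeR adjusted p = 6.62e-06), and by CPM this direction held in 3 of 4 libraries, the exception being WT SCD.

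Gpx1, the general cytosolic glutathione peroxidase (chromosome 9, 108338903 to 108340343, plus strand), set delta-like cells apart from beta-like and alpha-like cells. It was at 528.7, 424.3, 393.9 and 277.9 CPM in delta-like cells of WT SCD, HH SCD, WT HFD and HH HFD and at 95.3, 99.3, 73.2 and 77.6 CPM in beta-like cells, with no overlap. The log2 difference was -1.30 against delta-like cells (SE 0.12, edgeR adjusted p = 2.16e-09) and -0.74 against endothelial-like cells (SE 0.13, edgeR adjusted p = 1.24e-05), which held 299 to 335 CPM of Gpx1. Against alpha-like cells (89.1 to 128 CPM) the value was 0.26 and did not pass the test (edgeR adjusted p = 0.0795). Gpx4, which reduces lipid peroxides in membranes, lies on chromosome 10 from 80047166 to 80056439 (plus strand). It has a named copy, Gpx4-ps2, and how reads that match both were counted was not examined. It was at 129.2, 123.8, 129.2 and 121.5 CPM in beta-like cells and at 540 to 672 CPM in endothelial-like cells, a log2 difference of -1.16 (SE 0.09, edgeR adjusted p = 2.51e-11). Its differences from alpha-like (0.01) and delta-like cells (0.11) did not pass the test.

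The peroxiredoxins passed the test against different classes. Prdx1, a cytosolic peroxiredoxin (chromosome 4, 116685544 to 116700822, plus strand), was at 141.0, 147.9, 147.1 and 173.4 CPM in beta-like cells of WT SCD, HH SCD, WT HFD and HH HFD. Endothelial-like cells held 595 to 668 CPM of Prdx1, and the log2 difference was -0.90 (SE 0.10, edgeR adjusted p = 6.76e-09). Prdx2, its cytosolic relative (chromosome 8, 84969587 to 84974834, plus strand), overlaps Rnaseh2a and Junb on the other strand and has a named copy, Prdx2-rs3. It was at 104.7, 106.9, 130.3 and 136.7 CPM in beta-like cells and at 273 to 336 CPM in alpha-like cells, a log2 difference of -0.79 (SE 0.10, edgeR adjusted p = 2.28e-07). The difference of Prdx2 from endothelial-like cells was -0.06 and did not pass the test (edgeR adjusted p = 0.939). Nor did that of Prdx1 from alpha-like cells (0.17, edgeR adjusted p = 0.151). Against delta-like cells the 2 genes were alike and neither passed, at -0.22 for Prdx1 and -0.20 for Prdx2 (edgeR adjusted p = 0.0615 and 0.1).

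Txn1, which encodes thioredoxin, the small protein that recharges peroxiredoxins, lies on chromosome 4 from 57943373 to 57956411 (minus strand) and has a named copy, Txn-ps1. Beta-like cells held 66.7, 73.4, 67.9 and 99.8 CPM of Txn1 in WT SCD, HH SCD, WT HFD and HH HFD, and endothelial-like cells 583 to 706 CPM. The log2 difference was -1.94 (SE 0.13, edgeR adjusted p = 7.68e-13), next to Cat the largest deficit of beta-like against endothelial-like cells among the 10 genes. Alpha-like cells (87.8 to 108 CPM) and delta-like cells (145 to 172 CPM) did not pass the test against beta-like cells for Txn1 (log2 differences 0.29 and -0.10). Txnrd1, the cytosolic thioredoxin reductase, is a selenoprotein gene on chromosome 10 from 82833951 to 82897712 (plus strand). It overlaps Eid3 on the same strand, and how reads in the overlap were counted was not examined. Txnrd1 was at 42.7, 40.1, 44.2 and 38.0 CPM in beta-like cells and passed no test against the 3 classes. In endothelial-like cells Txnrd1 was at 157.7 and 102.2 CPM on SCD and 49.8 and 53.6 CPM on HFD (WT and HH in turn, 59 to 141 UMIs), and in stromal-like cells at 126 and 151 CPM on SCD and 45.3 and 62.9 CPM on HFD (14 to 54 UMIs). Txnrd1 in alpha-like cells was at 91.1 and 83.7 CPM on SCD and 65.3 and 71.9 CPM on HFD, with a log2 ratio of HFD over SCD of -0.48 (-0.70 to -0.27) in WT and -0.22 (-0.43 to -0.01) in HH. Macrophage-like cells held 252 CPM of it in WT SCD and 62.7 and 46.2 CPM on HFD. In endothelial-like, stromal-like and alpha-like cells the SCD libraries were thus above the HFD libraries without overlap. How many of all genes separate the libraries in this way was not counted. Of macrophage-like cells, HH SCD has no value. In delta-like cells the values were 95.6 and 105.4 CPM on SCD and 95.1 and 95.3 CPM on HFD, and in PP-like cells, where WT went the other way (0.40), 47.3 and 74.4 CPM on SCD and 62.6 and 60.5 CPM on HFD. The 4 beta-like values lay within 38.0 to 44.2 CPM. With WT SCD left out, the TMM-scaled difference of Txnrd1 between beta-like and endothelial-like cells was 0.54 and passed the test, where it was 0.08 with all libraries (edgeR adjusted p = 0.773).

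Macrophage-like cells numbered 9 in HH SCD and were added to the fit with a lower cell minimum, a choice made after seeing the data. By edgeR 8 of 10 genes were lower in beta-like cells (Sod2, Cat, Gpx1, Gpx3, Gpx4, Prdx1, Txn1, Txnrd1) and 1 was higher (Sod1), with 20.1% of all genes lower and 23.8% higher. Cat (-4.74), Gpx1 (-2.52), Prdx1 (-1.65) and Txn1 (-1.18) had the largest log2 differences after which Gpx3 followed (-1.15). Free RNA was not measured. As a stand-in, the summed profile of all barcodes of each library, scaled by its hormone content, was subtracted. It removed at most 33.9%, 42.3%, 11.1% and 87.1% of macrophage-like UMIs in the 4 libraries. The part of free RNA, doublets or taken-up material in these levels was not tested. The call for Gpx3 was lost without WT SCD, HH SCD or HH HFD, that for Txnrd1 without WT SCD or HH SCD, that for Sod2 without WT SCD and that for Sod1 without WT HFD. Gpx3 turned to 0.325 with a looser filter on cells. Fewer genes passed when only the 2 classes compared were in the fit.

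The genotype comparison in beta-like cells asked whether the enzymes differed between HH and WT islets within each diet. A gene was counted as higher or lower when its log2 ratio was at least 0.322 in size (the fold used here) at a mean of 10 CPM or more, which 9 of the 10 genes reached, Cat being below it. On SCD 0 genes were higher and 0 lower, where 0.313% of all genes were higher and 2.09% lower by the same rule. On HFD 2 of 9 genes were higher in HH, Gpx3 and Txn1, and 0 were lower, where 3.27% of all genes were higher and 13.1% lower. The median log2 ratio of the 10 genes was 0.01 on SCD and 0.08 on HFD, against -0.08 and -0.13 over all genes. These medians moved with the scale, and that of the 10 genes on HFD turned negative with a looser filter on cells. With 1 library per group these are differences between libraries, and whether other animals of each group would show them cannot be told.

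**Figure D3:**
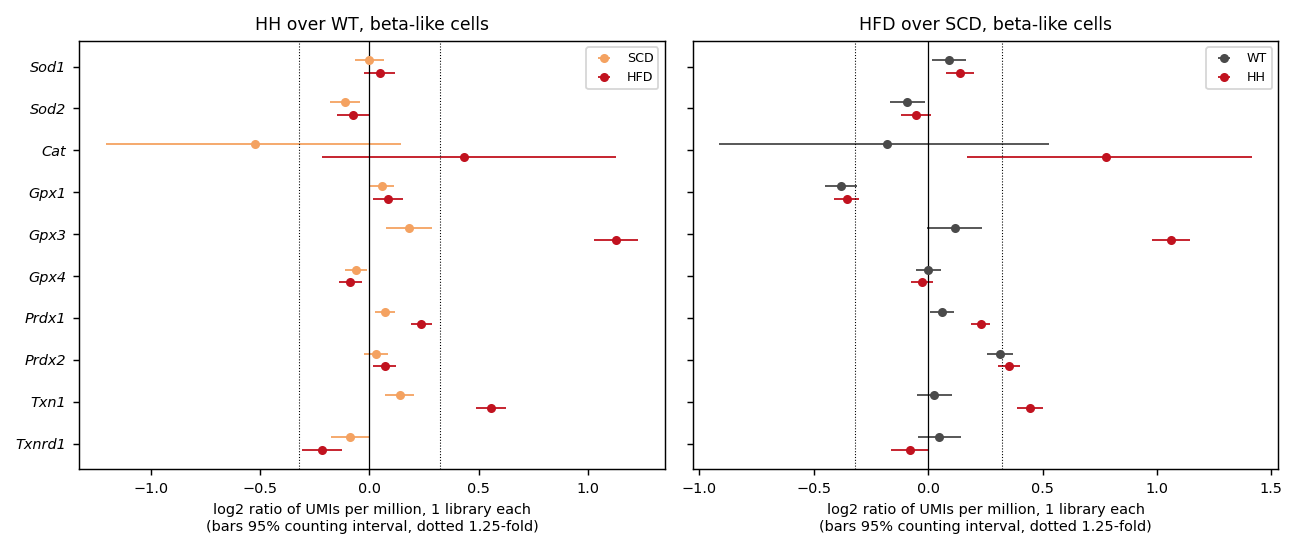
Log2 ratios of CPM in beta-like cells (x axes) for each gene (y axis), as HH over WT in each diet on the left and HFD over SCD in each genotype on the right; bars are 95% counting intervals and dotted lines mark log2 ratios of 0.322 in either direction. Gpx3 stands at 1.13 and Txn1 at 0.55 for HH over WT on HFD, and Gpx1 lies at -0.38 and -0.36 for HFD over SCD.

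Gpx3 was at 28.3 CPM in WT HFD and 61.8 CPM in HH HFD, a log2 ratio of 1.13 (95% counting interval 1.02 to 1.23), while WT SCD and HH SCD were at 26.1 and 29.6 CPM (0.18, 0.08 to 0.29). HH HFD thus stood apart from the other libraries, which differed from each other by little. Txn1 was at 67.9 CPM in WT HFD and 99.8 CPM in HH HFD, a log2 ratio of 0.55 (0.49 to 0.62), against 0.14 (0.07 to 0.20) on SCD, so that 3 libraries lay between 66.7 and 73.4 CPM and HH HFD apart from them. Prdx1 was next, with a ratio of 0.24 on HFD (0.19 to 0.29) and 0.07 on SCD. Txnrd1 went the other way on HFD, with a ratio of -0.22 (-0.31 to -0.13), which did not reach the fold. The remaining genes with 10 CPM lay between -0.11 and 0.08 in both diets. Cat, at 27 and 76 UMIs on HFD, had a ratio of 0.43 with a wide interval that includes 0, and it turned to -1.14 with a looser filter on cells, under which Gpx1 turned from 0.08 to -0.09.

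The share of calls in each direction depended on the scale. By CPM 19.9% of all genes called between HH and WT on HFD were higher (193 higher, 775 lower), by CPM without hormones 22.1%, and with median-of-ratios size factors 70.1% (493 higher, 210 lower); on SCD the shares were 13%, 31.6% and 54.7%. Gpx3 and Txn1 were past the fold on each of these scales, at log2 ratios of 1.27 and 0.70 with size factors, where Prdx1 also passed at 0.38 and the ratio of Txnrd1 was -0.07. The sign for Sod2 and Gpx4 on HFD depended on the scale, -0.07 and -0.09 by CPM and 0.07 and 0.06 with size factors.

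The share of beta-like cells with a UMI moved with the sums. With every cell thinned to 3000 UMIs, 6.44%, 8.19%, 6.87% and 12.8% of beta-like cells held Gpx3 in WT SCD, HH SCD, WT HFD and HH HFD (24.7%, 28.7%, 23.0% and 34.8% unthinned), with an exact binomial interval of 11.6% to 14.1% in HH HFD and of 5.47% to 8.50% in WT HFD. Endothelial-like cells, the class of the test with the least Gpx3 in 3 of 4 libraries, held it in 4.72%, 2.25%, 2.05% and 2.60% of cells (7.09%, 8.99%, 4.79% and 7.29% unthinned). In WT SCD the beta-like share lay within the endothelial-like interval (1.75% to 10.0%), so the thinned shares did not separate the classes there, and in HH HFD it lay above that of its own library (0.851% to 5.97%). For Txn1 the shares were 17.6%, 18.5%, 17.3% and 24.4% (77.1%, 79.7%, 81.0% and 84.1% unthinned), with intervals of 22.8% to 26.0% in HH HFD and 15.2% to 19.7% in WT HFD. The endothelial-like share of Txn1 was 76% to 88.8%. Subtraction of the summed profile of all barcodes, as described for macrophage-like cells, removed at most 2.33%, 2.69%, 1.89% and 4.28% of beta-like UMIs in the 4 libraries. The part of free RNA in the shares of cells was not tested.

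Gpx3 was unevenly spread over beta-like cells. The 1% of cells with the most Gpx3 UMIs held 16.5% of them in HH HFD and 19.2% to 22.6% in the other libraries, against 3.08% to 5.10% for the 8 other genes apart from Cat. Beta-like cells were clustered again without the 10 genes, which gave 8 sub-clusters, identified here by number. Sub-cluster 3, led by Pyy, Rbp4, Tspan8 and Ppy, genes of PP and delta cells among them, had 128, 127, 95 and 150 cells in the 4 libraries and held Gpx3 at 199.9, 209.5, 176.3 and 299.4 CPM, against 16.3, 20.3, 16.1 and 52.1 CPM in the remaining beta-like cells. It was also low in Mafa, a regulator of insulin genes and of beta cell maturity, at 64.5, 91.7, 95.1 and 82.9 CPM. Sub-clusters 1 and 2 were almost wholly of the SCD libraries and held Gpx3 at 20.5 and 23.1 CPM (sub-cluster 1, WT and HH) and 10.1 and 12.0 CPM (sub-cluster 2).

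**Figure D4:**
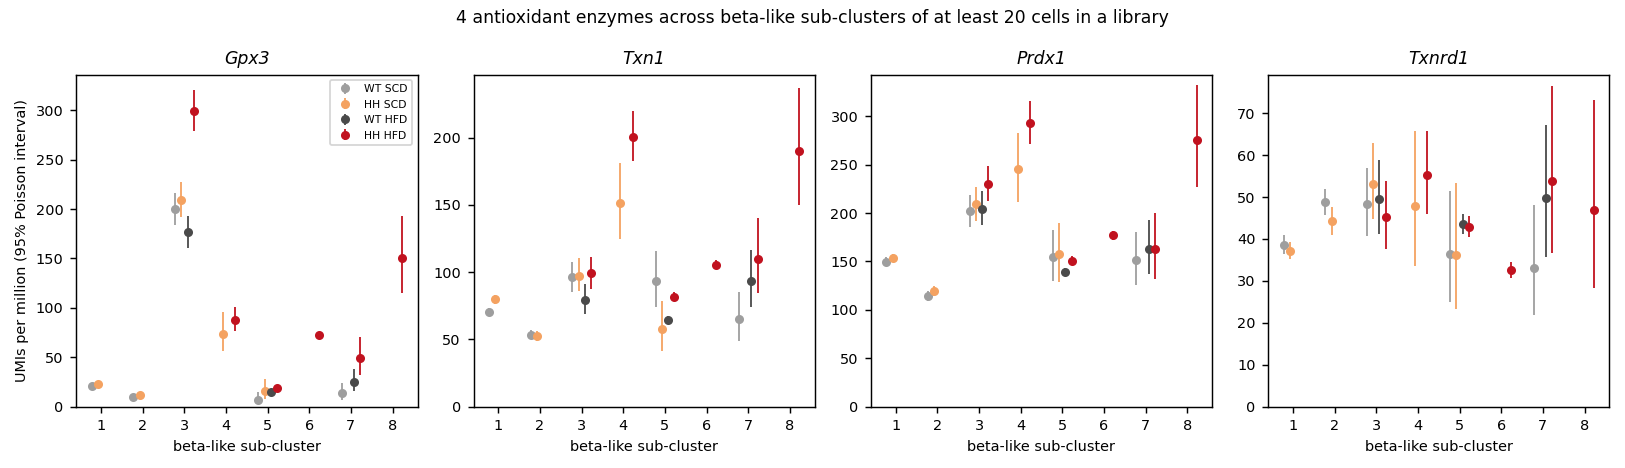
CPM of Gpx3, Txn1, Prdx1 and Txnrd1 (y axes) in each beta-like sub-cluster (x axes) that holds at least 20 cells of a library, with 95% Poisson counting intervals and colours for the 4 libraries. Gpx3 is at 176.3 to 299.4 in sub-cluster 3, at 14.3 (WT) and 19.1 (HH) in sub-cluster 5 on HFD and at 72.5 in sub-cluster 6 of HH HFD.

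On HFD the libraries differed in make-up. Sub-cluster 5, led by Lars2 and Nupr1, a stress-response gene, held 992 cells of WT HFD and 1245 of HH HFD. Sub-cluster 6, led by Dapl1, Gc, Rgs2 and Ttr, and with Derl3 and Creld2 of endoplasmic reticulum quality control among its leading genes, held 1320 cells of HH HFD and 9 of WT HFD. Because sub-cluster 6 came almost wholly from 1 library, the sub-cluster and the library cannot be told apart. Within HH HFD, Gpx3 was at 72.5 CPM in sub-cluster 6 and 19.1 CPM in sub-cluster 5, a log2 ratio of 1.92 (1.79 to 2.06). Txn1 was at 105.5 and 81.5 CPM (0.37, 0.30 to 0.45) and Prdx1 at 177 and 150.9 CPM (0.23, 0.17 to 0.29), while Txnrd1 was lower, at 32.5 and 42.9 CPM (-0.40, -0.52 to -0.28). Sod1 and Sod2 were at ratios of -0.00 and 0.04 with intervals that include 0. Mafa was at 113 CPM in sub-cluster 6 against 286.6 CPM in the other beta-like cells of HH HFD.

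Within sub-cluster 5, which both HFD libraries filled, Gpx3 was at 14.3 CPM (WT) and 19.1 CPM (HH), a log2 ratio of 0.42 (0.23 to 0.60) where it was 1.13 over all beta-like cells. Txn1 was at 64.6 and 81.5 CPM (0.33, 0.25 to 0.42) where it was 0.55 over all. Both values remained past the fold there, but the interval of Txn1 spans it. The share of all genes past the fold within sub-cluster 5 is not given. The ratio of Txnrd1 within sub-cluster 5 was -0.02 with an interval that includes 0. Without sub-cluster 3 the ratio of Gpx3 on HFD was 1.69 and on SCD 0.317, just short of the fold.

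Of the marker lists of other cell types, those of PP, delta, endothelial, B, ductal and stromal cells had their highest sum in HH HFD, and those of alpha, T, acinar and Schwann cells and of macrophages did not. The 5 PP cell markers, all above 0 in each library, summed to 614, 759, 664 and 1287 CPM in beta-like cells of WT SCD, HH SCD, WT HFD and HH HFD. The 8 alpha cell markers, also all above 0, summed to 856, 1066, 605 and 916 CPM, the 7 macrophage markers to 42.3, 53.3, 47.1 and 39.2 CPM, and the delta cell list to 92.2, 88.8, 80.6 and 149.5 CPM, with Prg4 at 0 in HH SCD and WT HFD. The 7 endothelial markers summed to 5.42, 4.82, 5.60 and 25.4 CPM and the 5 B cell markers to 15.8, 7.21, 9.10 and 59.9 CPM, 2 or 3 of the B cell markers being at 0 on SCD. Sub-cluster 8, led by endothelial genes such as Flt1 and Plvap, had 20 of its 22 cells in HH HFD and held Gpx3 at 150.4 CPM and Txn1 at 189.8 CPM there. The ductal list summed to 83.3, 81.1, 88.1 and 108.5 CPM and the stromal list to 0.679, 0.209, 1.80 and 3.25 CPM. A list of 10 dissociation stress genes, all above 0, summed to 1616 CPM in HH HFD and 2847 CPM in WT HFD, with 3896 and 3978 CPM on SCD. The part of these other transcripts in the Gpx3 and Txn1 ratios was not tested.

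The other endocrine classes were compared in the same way. In alpha-like cells 0 genes were higher and 0 lower in either diet, where 4.21% of all genes were higher and 7.4% lower on SCD and 6.02% and 6.87% on HFD. Gpx3 in alpha-like cells had ratios of 0.05 on SCD and 0.09 on HFD, and Txn1 of -0.01 and 0.24 (0.05 to 0.42). In delta-like cells 0 were higher and 0 lower on SCD, where 6.34% of all genes were higher and 8.82% lower. On HFD 0 were higher and 1 lower in delta-like cells, where 8.62% of all genes were higher and 15% lower. That gene was Gpx1, at 393.9 CPM in WT HFD and 277.9 CPM in HH HFD (-0.50, -0.65 to -0.35), and its ratio on SCD was -0.317 (-0.42 to -0.22), just short of the fold. These comparisons rest on 160 to 349 delta-like cells a library. In PP-like cells, with 72 to 184 cells a library, 1 gene was higher and 0 lower on SCD, where 11.3% of all genes were higher and 11.8% lower, and 0 were higher and 0 lower on HFD, where the shares were 7.78% and 23.2%. The gene was Txnrd1, at 47.3 CPM in WT SCD and 74.4 CPM in HH SCD (0.65, 0.31 to 1.005, from 108 and 199 UMIs).

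Between diets, beta-like cells of WT gave 0 genes higher and 1 lower on HFD, where 6.67% of all genes were higher and 13% lower. In HH 3 were higher (Gpx3, Prdx2, Txn1) and 1 lower, where 7.35% of all genes were higher and 17.6% lower. The lower gene was Gpx1 in both genotypes, with log2 ratios of -0.38 (-0.45 to -0.31) in WT and -0.36 (-0.41 to -0.30) in HH. Gpx1 was also lower on HFD in alpha-like cells (-0.46 in WT, -0.43 in HH) and delta-like cells (-0.42 and -0.61). The medians over all genes were -0.06 and -0.04 in alpha-like and 0.06 and 0.04 in delta-like cells. The shares of all genes that were lower in these classes between diets are not given. In PP-like cells its ratios were -0.49 in WT and -0.23 in HH (-0.46 to 0.01), short of the fold in HH, while in endothelial-like cells its ratios were -0.13 and -0.03 with intervals that include 0. Without hormone and mitochondrial genes Gpx1 was at 262.6 and 284.3 CPM on SCD and 206.2 and 221.9 CPM on HFD in beta-like cells (WT and HH in turn), so the direction was the same. Prdx2 was higher on HFD in beta-like cells, by 0.316 in WT (0.26 to 0.37), just under the fold, and by 0.35 in HH, and in delta-like cells by 0.61 and 0.46. The HH over WT and the HFD over SCD comparisons share libraries, so Gpx3 (1.06) and Txn1 (0.44) in the HFD over SCD comparison of HH restate the level of HH HFD. Diet and age cannot be told apart in any of these values.

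The rest of the pathway was described with 42 other antioxidant genes. Of the 41 tested, 14 were higher and 10 lower in beta-like than in alpha-like cells, 15 higher and 6 lower than in delta-like cells, and 12 higher and 15 lower than in endothelial-like cells, beside the shares of all genes given above. Between HH and WT on HFD, 2 of the 26 genes at 10 CPM were higher and 4 lower in beta-like cells, where 3.27% of all genes were higher and 13.1% lower. The group of other superoxide dismutase, peroxiredoxin and glutathione peroxidase genes had 6 of 9 members at 10 CPM in beta-like cells, of which 2 were higher and 0 lower. Prdx4, the peroxiredoxin of the endoplasmic reticulum, was at 17.4 CPM in WT HFD and 35.8 CPM in HH HFD (1.04, 0.91 to 1.18), against 15.1 and 17.5 CPM on SCD. Gpx2, a glutathione peroxidase best known from gut epithelium, was at 27.5 and 40.0 CPM on HFD (0.54, 0.43 to 0.65), and at 15.8 and 20.3 CPM on SCD (0.36, 0.23 to 0.49), the 1 gene of the 26 past the fold there. The thioredoxin and glutaredoxin group had 0 higher and 1 lower of 7 at 10 CPM on HFD, namely Glrx5, a mitochondrial glutaredoxin of iron-sulfur cluster assembly (82.8 and 64.4 CPM, -0.36). Glutathione synthesis and use had 0 higher and 0 lower of 4. In the group of NRF2 and its targets 5 of 9 genes reached 10 CPM, with a median log2 ratio of -0.22. Of these 0 were higher and 1 lower, Nfe2l2 itself, the gene of the transcription factor NRF2 (13.5 and 10.5 CPM, -0.37). Below 10 CPM, and so not called, Nqo1 was at -0.68 (-1.02 to -0.33) and Hmox1 at -0.43 (-0.78 to -0.08). The intervals of G6pdx and Pgd, also below 10 CPM, include 0. Ftl1, the ferritin light chain (1436 and 1150 CPM), was just short of the fold at -0.321. Selenoprotein synthesis had 0 higher and 2 lower of 4, Sephs2 (17.0 and 13.0 CPM, -0.38), which makes selenophosphate, and Sepsecs (26.4 and 19.0 CPM, -0.47), which forms selenocysteine on its transfer RNA. The 4 lower genes of 26 are close to the share of all genes that was lower. The calls of these genes are by CPM alone, and the share of calls in each direction depended on the scale, as given above.

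**Figure D5:**
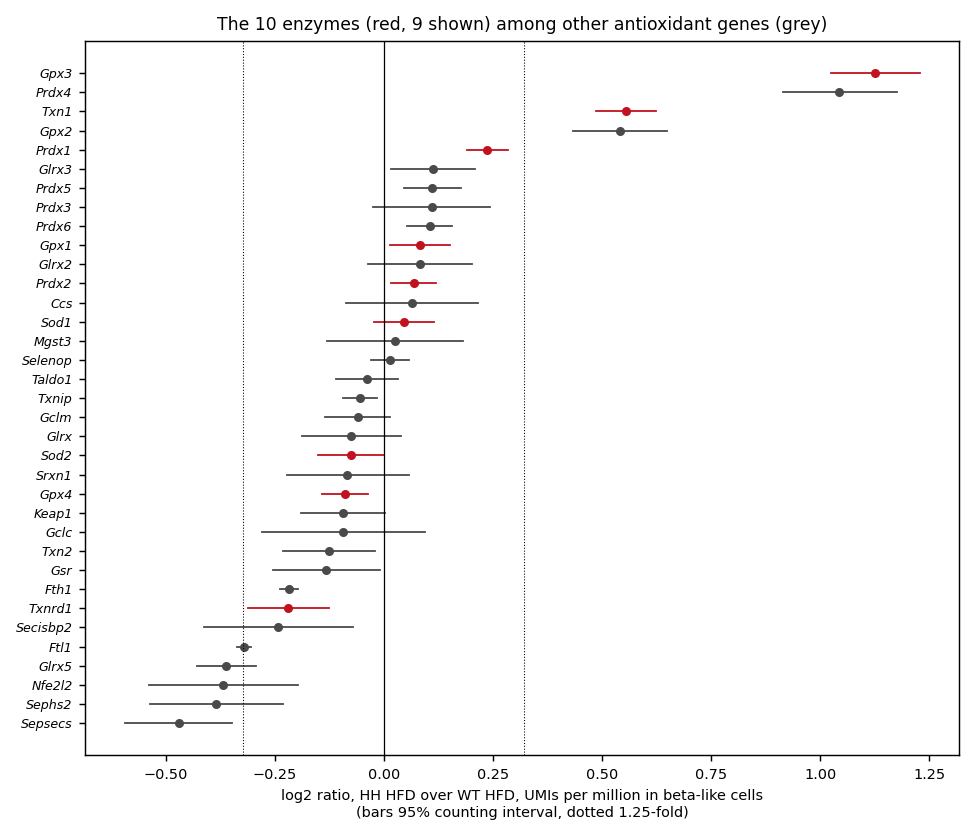
Log2 ratio of HH HFD over WT HFD in beta-like cells (x axis, from CPM) for the genes at a mean of 10 CPM or more, ordered by ratio, with 9 of the 10 enzymes in red and the other antioxidant genes in grey; bars are 95% counting intervals and dotted lines mark log2 ratios of 0.322 in either direction. Gpx3 (1.13), Prdx4 (1.04), Txn1 (0.55) and Gpx2 (0.54) lie to the right of the fold, and Sepsecs (-0.47) is the lowest.

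The promoters were searched for the core of the antioxidant response element, the site bound by NRF2, written TGACNNNGC and read on both strands in RefSeq windows of 300 bases (250 before to 50 after a start site, GRCm38.p6). All 10 genes had a window. The core was present in windows of 3 of the 10 genes: Sod1 (at -56 from the start site), Prdx1 (at -133) and a second window of Txnrd1 (at -92), all on the minus strand of the window. Over all genes with such a window, 14% held it. The sequences of Prdx1, which holds the core, and of Gpx3 and Txn1, which differed between HH and WT on HFD and do not hold it in this window, are shown without annotated exon bases, 5′ to 3′ on the strand of the gene, with the core in capitals. They span chr4:116685349-116685543 on the plus strand, chr11:54902604-54902771 on the plus strand and chr4:57956412-57956661 on the minus strand.
Prdx1: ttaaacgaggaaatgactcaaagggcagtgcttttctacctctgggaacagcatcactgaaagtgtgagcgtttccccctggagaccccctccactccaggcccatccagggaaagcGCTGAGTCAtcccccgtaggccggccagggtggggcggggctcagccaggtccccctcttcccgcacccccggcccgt
Gpx3: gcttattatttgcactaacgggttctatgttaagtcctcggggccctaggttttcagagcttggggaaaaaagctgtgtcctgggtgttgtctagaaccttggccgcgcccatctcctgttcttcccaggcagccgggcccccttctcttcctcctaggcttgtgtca
Txn1: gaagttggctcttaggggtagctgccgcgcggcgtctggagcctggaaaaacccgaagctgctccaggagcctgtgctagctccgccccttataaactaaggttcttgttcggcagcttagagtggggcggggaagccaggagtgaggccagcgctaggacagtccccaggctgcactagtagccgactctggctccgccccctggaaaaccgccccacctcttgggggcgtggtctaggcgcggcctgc
A match of these letters is a description of the window and says nothing of binding in these cells. Gpx3 and Txn1, the 2 genes past the fold on HFD, and Gpx1, lower on HFD in both genotypes, had no match in the windows searched.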

How the data were processed

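Islet cells of 4 libraries, 1 per group, were read by droplet 3′ single-cell RNA sequencing. The authors aligned reads to mm10 and counted molecules with Cell Ranger 6.0, per the labels, and deposited raw UMI counts per gene and barcode. Cells with 3000 to 50000 UMIs, 2000 to 5000 genes and under 10% mitochondrial UMIs were kept, and the cells with the highest doublet scores were removed at 0.8% per 1000 cells (Python 3.11.15, scanpy 1.11.5). Clusters were made without the genes described, named from marker lists, and summed per library. Sums of 6 classes (24 sums, at least 10 cells each) were tested in edgeR 4.0.16 (R 4.3.3, quasi-likelihood, TMM, library as block, Benjamini-Hochberg, threshold 0.05), with DESeq2 1.42.0 as an alternative. The library block takes up differences shared by all classes. The SE comes from the fit over all 24 sums and includes what genotype and diet change differently between classes. HH and WT ratios are of CPM with exact conditional Poisson intervals at 95% (scipy 1.17.1), and shares have exact binomial intervals. Scripts were tested on simulated data. Genes named are the 10 enzymes and, of 42 listed antioxidant genes, those past the fold (log2 ratio 0.322) at 10 CPM. Ftl1, just short of it, and Nqo1, Hmox1, G6pdx and Pgd, below 10 CPM, were named after their values were seen. Other genes named are leading or marker genes of cell groups. Members and lists were chosen with earlier results of these data known.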

Additional observations from a re-analysis of the deposited data

How the results depend on the processing

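The number of genes called against delta-like cells was 5 with DESeq2 in place of 3. With only the 2 classes compared in the fit, it was 7 in place of 4 against alpha-like and 5 in place of 9 against macrophage-like cells. Leaving out 1 library gave 3 to 4 calls against alpha-like, 3 against delta-like, 7 to 9 against endothelial-like and 6 to 8 against macrophage-like cells. The replicate block was the library itself; without it the counts were 3, 3, 7 and 7. Gpx3 against macrophage-like cells reversed to 0.33 from -1.15 with the looser filter on cells (1000 UMIs, 500 genes). For HH over WT in beta-like cells, median-of-ratios size factors moved the median log2 ratio of the 10 genes from 0.01 to 0.10 on SCD and from 0.08 to 0.22 on HFD. The medians over all genes were then 0.006 and 0.017. With the looser filter the median of the 10 genes on HFD was -0.039, and a cluster of 133 cells led by Apol7c and Lsp1 counted as beta-like. At 1.5-fold 1 gene (Gpx3) was called on HFD in place of 2. The causes were not tested. Over the 10 genes and all alternatives, 461 class differences kept direction and side of the threshold, 38 lost and 20 gained the call, and 1 reversed; Sod1 against alpha-like cells was lost in 11 of 13 alternatives. Gpx3 and Txn1 were past the fold on HFD in 10 of 10 alternatives, with log2 ratios of 0.42 to 1.69 and 0.33 to 0.70. The alternatives without sub-cluster 3, without sub-clusters 4 and 8 and within sub-cluster 5 were chosen after seeing the data. Shares of cells moved with depth in 78 of 80 alternatives. With 1 library per group, spread between animals is unknown, and Cat, at 27 to 76 UMIs per library in beta-like cells, rests on few counts.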

Other observations

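Over the 24 sums of 6 classes and 4 libraries, the gene of at least 50 CPM in beta-like cells whose log2 CPM followed each enzyme most closely, among 1361 genes, was Cpq for Gpx3 (Pearson r = 0.959), Cdc42 for Txn1 (0.975), Arf1 for Cat (0.972), Ywhab for Gpx4 (0.99), Tmem176a for Prdx1 (0.968), Tra2a for Prdx2 (0.932), Morf4l1 for Gpx1 (0.929), Hnrnpa2b1 for Sod2 (0.948), Meis2 for Sod1 (0.924) and Smarca5 for Txnrd1 (0.889). These are descriptions: the sums share libraries, and all genes outside the hormones share the lower CPM of beta-like cells. The value for Txnrd1 was the lowest of the 10.

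A small set of beta-like cells led by Igkc, Ighm and cell cycle genes such as Ube2c and Top2a (sub-cluster 4, with 27 cells in HH SCD and 81 in HH HFD) held Txn1 at 151.1 and 200.6 CPM, against 72.2 and 96.3 CPM in the other beta-like cells of those libraries. Among all cells, a beta-like cluster of 118 cells (10, 25, 10 and 73 in the same order) was led by cell cycle genes. It had no immunoglobulin gene among its 10 leading genes. How many cells of sub-cluster 4 carry immunoglobulin transcripts was not counted, and the part of doublets was not tested.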
